A study of Mus musculus with 3 samples.

Results

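Peaks of the transcription factor PU.1 that lie at the ends of long non-coding RNA (lncRNA) genes, away from protein-coding genes, were examined in a mouse pro-B cell line. They were chosen by position alone, from the peak list of PU.1 replicate 2. A peak was included when its centre lay within 1 kb of either end of an lncRNA gene and more than 5 kb from the span of every protein-coding gene. Of the 74494 peaks in that list, 1177 met the rule (1.58%), and they lay at the ends of 1093 lncRNA genes. The rule also allows the biotype ncRNA, which no gene in the RefSeq table (GRCm38.p6, the assembly called mm10) carries, so the set holds lncRNA genes only. The 2 PU.1 libraries, numbered 2 and 3, came from i660BM cells of strain C57BL/6, grown with interleukin-7 and carrying an inducible PU.1 system. For both, PU.1 was switched on for 24 h by doxycycline at 70 ng/ml, and chromatin was precipitated with a rabbit polyclonal antibody. An input DNA sample was made from the same line and was not analysed here. Any other alleles of the line are not named in the labels. The system is present in every sample and no peak list of uninduced cells was used, so PU.1 binding that needs the induction cannot be told apart from binding that does not. Nothing in the labels ties the libraries to separate cultures, so differences between them may be technical. Peak lists hold no RNA, so neither the cell type nor any transcript level could be checked by expression.

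PU.1 is an ETS family factor that binds purine-rich DNA around a GGAA core and is needed for both myeloid and B cell development. LncRNAs are transcripts without a long reading frame. Some act on the gene beside them, some in nuclear bodies, and some serve as precursors from which microRNAs or small nucleolar RNAs (snoRNAs) are cut. Their starts are often found in enhancers, and their span in an annotation is less certain than that of a protein-coding gene.

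Promoter sequences of the lncRNA genes on which the results below turn are shown first, from 250 bases before to 50 bases after a gene start, 5′ to 3′ on the strand of the gene (RefSeq, GRCm38.p6). Capitals mark GGAA on either strand (read as TTCC on the reverse) and, where the core lies in it, the whole of GAGGAAGT, an 8-base sequence preferred by PU.1. The first 3 promoters, of F730311O21Rik (chr1:132341680-132341979, plus strand), Mirt1 (chr19:53464747-53465046, minus strand) and Morrbid (chr2:128429302-128429601, minus strand), each hold 1 copy of the 8-mer close to the centre of a PU.1 peak. The promoter of 3300005D01Rik (chr17:5798407-5798706, plus strand) also holds it, under a strong replicate 2 peak that was centred 529 bp from the gene start and had no replicate 3 peak. The promoters of Gm33391 (chr8:86920955-86921254, plus strand), Malat1 (chr19:5802623-5802922, minus strand) and Chaserr (chr7:73558346-73558645, minus strand) lie under strong peaks and lack the 8-mer.
F730311O21Rik: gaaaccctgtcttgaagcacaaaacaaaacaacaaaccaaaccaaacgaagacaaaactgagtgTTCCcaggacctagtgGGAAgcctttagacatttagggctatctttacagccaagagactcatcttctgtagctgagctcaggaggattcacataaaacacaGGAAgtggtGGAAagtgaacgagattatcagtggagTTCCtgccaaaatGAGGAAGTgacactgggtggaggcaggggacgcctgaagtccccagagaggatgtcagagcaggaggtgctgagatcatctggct
Mirt1: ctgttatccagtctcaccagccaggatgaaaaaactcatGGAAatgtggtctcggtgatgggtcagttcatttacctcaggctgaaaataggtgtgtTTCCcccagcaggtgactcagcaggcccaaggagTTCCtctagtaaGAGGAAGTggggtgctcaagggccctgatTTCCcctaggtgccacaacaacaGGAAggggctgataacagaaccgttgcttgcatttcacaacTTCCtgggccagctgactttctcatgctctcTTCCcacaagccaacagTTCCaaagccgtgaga
Morrbid: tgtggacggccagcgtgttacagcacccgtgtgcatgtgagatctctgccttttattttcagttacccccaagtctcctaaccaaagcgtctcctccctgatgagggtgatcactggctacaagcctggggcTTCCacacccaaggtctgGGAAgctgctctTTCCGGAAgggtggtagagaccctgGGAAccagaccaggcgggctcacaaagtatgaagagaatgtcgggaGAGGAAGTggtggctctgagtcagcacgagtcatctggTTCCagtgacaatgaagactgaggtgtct
3300005D01Rik: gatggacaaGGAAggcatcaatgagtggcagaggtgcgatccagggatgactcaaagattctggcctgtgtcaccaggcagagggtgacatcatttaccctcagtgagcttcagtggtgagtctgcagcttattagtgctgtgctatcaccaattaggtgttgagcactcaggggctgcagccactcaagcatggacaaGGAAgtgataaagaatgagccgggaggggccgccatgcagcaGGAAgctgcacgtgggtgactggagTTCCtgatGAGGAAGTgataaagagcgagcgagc
Gm33391: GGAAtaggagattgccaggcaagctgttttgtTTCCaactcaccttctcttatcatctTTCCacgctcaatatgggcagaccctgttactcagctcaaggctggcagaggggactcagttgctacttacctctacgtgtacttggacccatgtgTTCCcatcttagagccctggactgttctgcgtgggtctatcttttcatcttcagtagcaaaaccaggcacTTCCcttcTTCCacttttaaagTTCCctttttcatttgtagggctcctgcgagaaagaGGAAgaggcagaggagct
Malat1: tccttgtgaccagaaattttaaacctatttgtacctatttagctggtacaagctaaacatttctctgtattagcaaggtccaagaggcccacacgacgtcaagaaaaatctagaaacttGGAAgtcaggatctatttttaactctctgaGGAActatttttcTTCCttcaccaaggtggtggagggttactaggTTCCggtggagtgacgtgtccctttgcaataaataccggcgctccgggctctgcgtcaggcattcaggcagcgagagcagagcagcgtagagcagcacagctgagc
Chaserr: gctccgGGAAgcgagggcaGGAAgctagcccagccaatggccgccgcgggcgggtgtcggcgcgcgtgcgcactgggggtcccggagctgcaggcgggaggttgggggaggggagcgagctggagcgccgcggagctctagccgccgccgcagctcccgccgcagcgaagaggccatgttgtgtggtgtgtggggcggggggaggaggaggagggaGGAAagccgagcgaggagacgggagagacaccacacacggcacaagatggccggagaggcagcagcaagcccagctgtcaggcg

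Each peak list gives a score per peak, which is the authors' own value, taken to be the negative log10 of its p-value, multiplied by 10. It was used only within its own list. The 1177 peaks at lncRNA gene ends had a median replicate 2 score of 313.52, with quartiles of 137.59 and 818.53 and a range from 70.17 to 3174.08. The median was 231.785 over all replicate 2 peaks and 397.28 over the 7947 peaks at protein-coding gene ends. Over the 31729 other peaks more than 5 kb from protein-coding genes, called other distant peaks from here on, it was 188.48. Of the peaks at lncRNA ends, 59 scored 3100 or more (5.01%), against 3.57% of all replicate 2 peaks. Of the 59, 57 stood at exactly 3100 and 2 above it, and 3100 or more is called the ceiling from here on. Their median width was 1030 bp, against 995 bp for the whole list. Peaks are not replicates of a condition, so no p-value was computed between these sets.

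Replicate 3 is a shorter list, of 6169 peaks, and took no part in choosing the members. A replicate 3 peak overlapped 124 of the 1177 (10.5%, exact Clopper-Pearson 95% interval 8.84 to 12.4), beside a background of 8.24% over all replicate 2 peaks. The share was 8.73% (8.12 to 9.38) at protein-coding gene ends and 7.58% (7.29 to 7.88) in other distant peaks. Intervals here and below cover counting error only. The 124 peaks had replicate 3 scores from 70.34 to 2479.21, with a median of 141.76, against 136.39 over all replicate 2 peaks that overlapped a replicate 3 peak. Of these scores, 33 lay under 100, close to the lowest that the list holds. The shared peaks were wider, with a median of 1255 bp against 1007 bp for the 1053 without a replicate 3 peak. The merged list of the series held 882 of the 1177 (74.9%, 72.4 to 77.4), beside 66.5% of all replicate 2 peaks. It held 81.1% (80.2 to 81.9) of peaks at protein-coding gene ends and 60.3% (59.8 to 60.9) of other distant peaks.

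The overlap with replicate 3 followed the replicate 2 score. When all replicate 2 peaks were divided into 10 bins of equal size by score, none of the 759 peaks at lncRNA ends in the lowest 7 bins (scores under 517) had a replicate 3 peak (0%, exact upper bound 0.485%). In bin 8 the count was 1 of 140, in bin 9 10 of 123 (8.13%, 3.97 to 14.4), and in the highest bin, from 1662 upwards, 113 of 155 (72.9%, 65.2 to 79.7). Over all replicate 2 peaks, 5 of 52146 in the lowest 7 bins had a replicate 3 peak. The shares were 0.376% in bin 8, 9.20% in bin 9 and 72.8% in the highest bin. Each lay within the interval at lncRNA ends, so the pattern was that of the whole list. In that highest bin the share was 59.9% at protein-coding gene ends and 77.0% in other distant peaks. The highest bin held 13.2% of the peaks at lncRNA ends. In that bin the lncRNA ends thus lay between the other classes, with an interval that reached the value of other distant peaks.

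**Figure D1:**
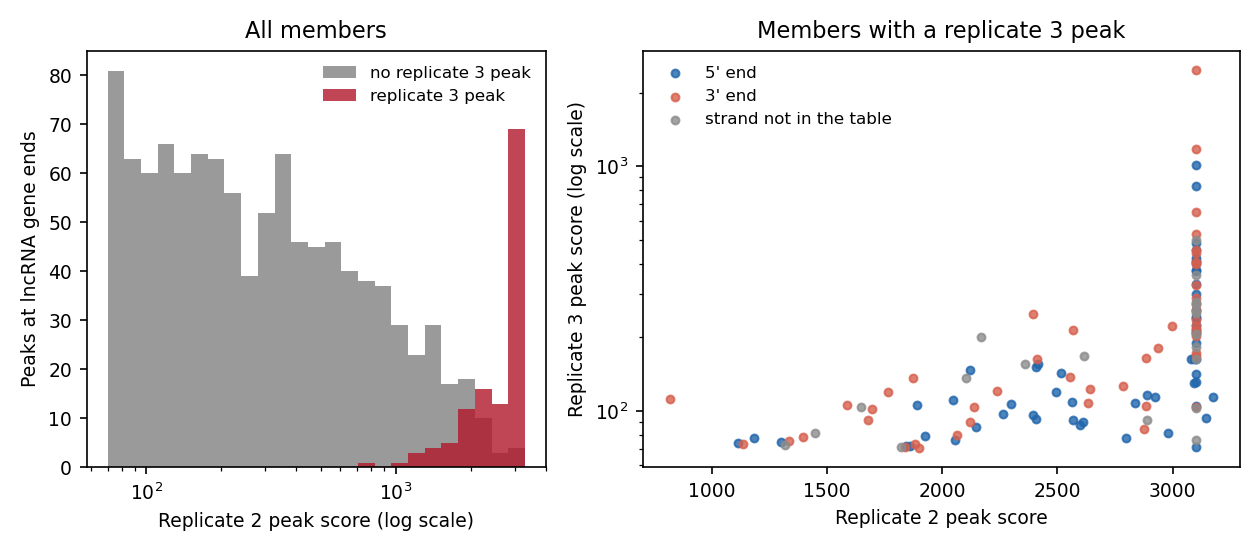
Replicate 2 scores of the 1177 peaks at lncRNA gene ends on a log axis (left: grey bars have no replicate 3 peak, red bars have one), and replicate 2 against replicate 3 scores of the 124 with a replicate 3 peak (right: blue 5' end, light red 3' end, grey strand not in the table). Peaks with a replicate 3 partner start at a replicate 2 score of 819, and 56 of them stand at 3100 or more.

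**Figure D2:**
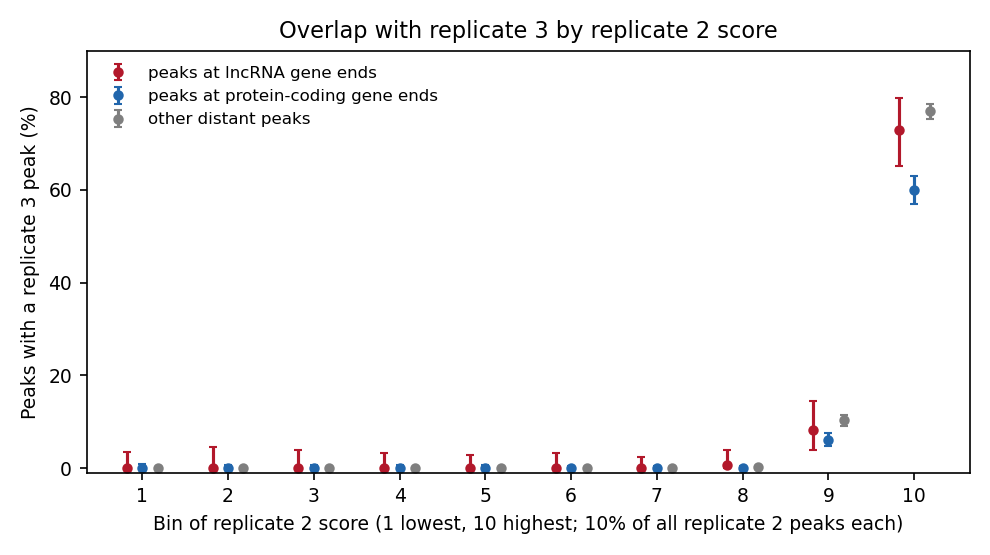
Share of peaks with a replicate 3 peak in each 10% bin of replicate 2 score, for peaks at lncRNA gene ends (red), at protein-coding gene ends (blue) and other distant peaks (grey), with exact 95% intervals. The share stays at or near 0 through bin 8 in each class and reaches 72.9% at lncRNA ends in bin 10.

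Within the 124, the peaks at the replicate 2 ceiling were also the stronger ones in replicate 3. The 56 with a replicate 2 score of 3100 or more had a median replicate 3 score of 257.505, with a range from 71.19 to 2479.21. The 68 below 3100 had a median of 105.185 and reached 248.07 at most. Across the 124 peaks the scores gave a Spearman coefficient of 0.71, and 0.54 across the 68 below the ceiling. The points share a cell line and an antibody, and the coefficient is a description.

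The strand of the gene, taken from the RefSeq promoter table, was known for 901 peaks. Of these, 546 lay at the 5' end, where the transcript starts, and 355 at the 3' end, so that 60.6% (57.3 to 63.8) were at the start. Peak centres bunched at the start itself. Of the 5' peaks, 101 (18.5%) were centred within 100 bp of the end, against 32 of the 3' peaks (9.01%), and the median distances were 382 and 496 bp. The 100 bp bins on either side of the 5' end held 52 and 49 peaks, while no 100 bp bin around the 3' ends held more than 29. Peaks at 5' ends lay on both sides of it, with 49.3% of centres inside the gene. The median replicate 2 scores were 310.815 at the 5' end and 288.43 at the 3' end. The share with a replicate 3 peak was 10.4% (8.00 to 13.3) at 5' ends and 13.2% (9.89 to 17.2) at 3' ends, with overlapping intervals.

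**Figure D3:**
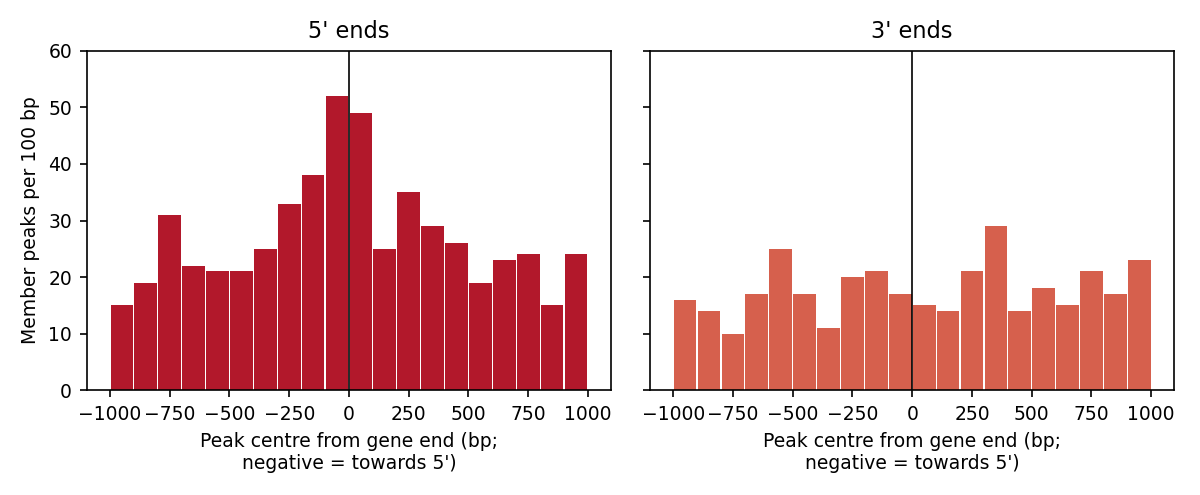
Number of peaks per 100 bp by the distance of the peak centre from the 5' end (left, 546 peaks) or the 3' end (right, 355 peaks) of the nearest lncRNA gene, with negative distances on the 5' side. Counts are highest at 52 and 49 in the bins that touch the 5' end, and show no such maximum at the 3' end.

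Seen from the genes, 8343 of the 12727 lncRNA genes had an end more than 5 kb from every protein-coding span. A replicate 2 peak was centred within 1 kb of such an end in 1124 of them (13.5%, 12.7 to 14.2), because 39 peaks lay near more than 1 gene and count for each. For the 21887 protein-coding genes, which carry no such distance limit, the share was 38.6%. Where the strand was known, the gap lay at the starts. A peak was found at 10.4% (9.58 to 11.2) of lncRNA 5' ends and 35.5% (34.8 to 36.2) of protein-coding 5' ends. At 3' ends the shares were 6.48% (5.86 to 7.14) and 6.96% (6.59 to 7.35). At ends without a strand they were 7.85% and 19.7%. Genes with a curated RefSeq transcript had a peak at 13.2% of 5' ends (11.4 to 15.1), those known from computed models alone at 9.43% (8.55 to 10.4), and the intervals did not overlap. At the 3' end both kinds stood at 6.49% and 6.48%. A replicate 3 peak lay at 1.01% (0.764 to 1.32) of lncRNA 5' ends and 0.857% (0.637 to 1.13) of 3' ends, with overlapping intervals. For protein-coding genes these shares were 3.14% and 0.566%. At lncRNA 5' ends the replicate 3 share was 1.09% (0.609 to 1.78) with a curated transcript. With computed models alone it was 0.987% (0.706 to 1.34), and these intervals overlapped.

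**Figure D4:**
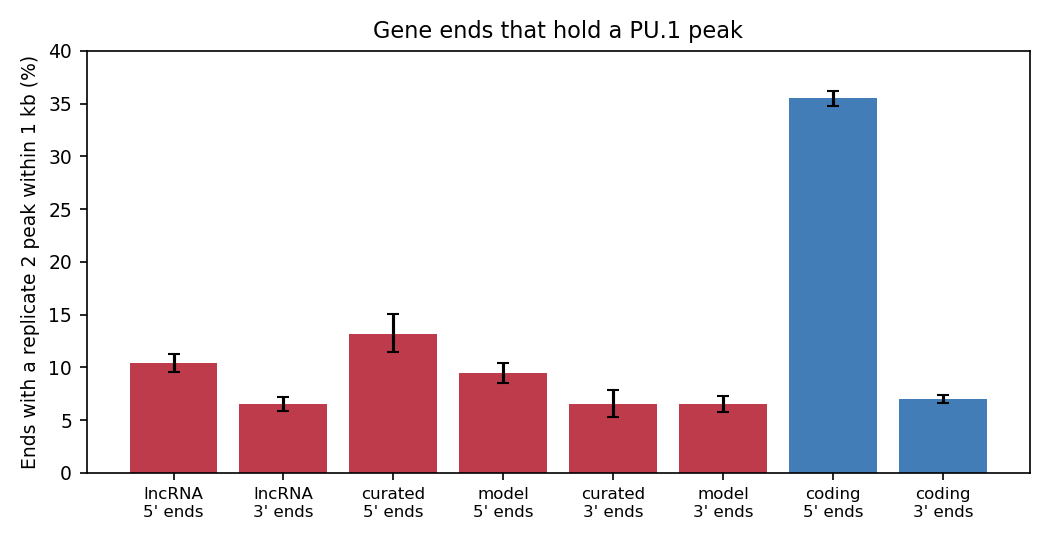
Share of gene ends with a replicate 2 peak centred within 1 kb, for lncRNA genes (red) and protein-coding genes (blue), with exact 95% intervals as black bars. The shares at lncRNA and protein-coding 3' ends are 6.48% and 6.96%, while at 5' ends they are 10.4% and 35.5%.

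Most genes held a single peak. Of the 1093 genes, 1011 had 1 member peak, 80 had 2 and 2 had 3, and 46 genes had a peak at both ends. One gene with 3 was A630001O12Rik (chromosome 8, 126849020 to 126851837), with peaks of 1107.99 and 1407.61 around its 5' end and 258.76 at its 3' end, none of them with a replicate 3 peak. The other was Gm30149 (chromosome 7, 73583285 to 73608740), with scores of 127.79, 183.4 and 149.2. It lies beyond Chaserr on the side away from Chd2, with Chd2 as the nearest protein-coding gene of both.

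The 3 highest replicate 3 scores fell to genes known only by a predicted name. Gm40550 had a peak 528 bp from its 3' end (chromosome 9, 96398522 to 96400390) that scored 3100 in replicate 2 and 2479.21 in replicate 3, where it ranked 21 in the whole list. The nearest protein-coding gene, Atp1b3, lay 35.0 kb away. Gm12059 had a peak 389 bp from its 3' end (chromosome 11, 23076105 to 23077293), with 3100 and 1175.95. Gm33391, whose promoter is shown above, had one 243 bp from its 5' end (chromosome 8, 86920074 to 86921850), with 3100 and 1014.45. These 3 peaks were the only members above 1000 in replicate 3, and all 15 of the strongest stood at 3100 in replicate 2.

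Gm2848 came next, with a peak 633 bp from its 5' end and inside the gene (chromosome 13, 52571915 to 52573270), scoring 3100 and 828.54. It lies 10.0 kb from Syk, the tyrosine kinase that carries the signal of the B cell receptor. Hand2os1, a lncRNA gene beside the heart factor gene Hand2, had a peak at its 3' end (chromosome 8, 57304540 to 57305775; 3100 and 651.18). F730311O21Rik had a peak 17 bp from its 5' end, 8.4 kb from Nuak2 (chromosome 1, 132341389 to 132342480; 3100 and 456.82). A further 8 of the 15 were at Gm45202, Gm41272, Gm36610, Gm34722, Gm51991, Rab10os, C330016L05Rik and Gm20559, with replicate 3 scores from 402.6 to 501.68. Of the 15, 7 lay at a 5' end, 7 at a 3' end, and 1 at a gene without strand.

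Some strong replicate 2 peaks had no replicate 3 peak. Of the 59 at the ceiling, 3 had none: those at the 5' ends of 3300005D01Rik (chromosome 17, 5797007 to 5799250), Gm33756 (chromosome 19, 59388030 to 59392682) and Gm38921 (chromosome 6, 143145559 to 143148179). They were wide, at 2244, 4653 and 2621 bp, against a median of 1030 bp for the whole set. Members with a replicate 3 peak had a median of 1255 bp and reached 3042 bp. Chaserr, a lncRNA that holds down its neighbour Chd2, followed with 3095.86 at its 5' end (chromosome 7, 73557972 to 73559883). Gm34462 had a 3' peak of 2654.15 (chromosome 3, 64235177 to 64236309). In the highest score bin, 54 of 76 peaks at 5' ends had a replicate 3 peak (71.1%), against 42 of 50 at 3' ends (84%). The share over all replicate 2 peaks in that bin was 72.8%. For genes with a curated transcript the counts were 16 of 27 at 5' ends and 9 of 11 at 3' ends, and for computed models 38 of 49 and 33 of 39. These counts are small and are given without intervals. The matching share for all replicate 2 peaks at the ceiling is not given here.

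Named lncRNA genes were grouped into 6 lists by what is known of them. Of 123 listed names, 85 matched a lncRNA gene, 59 of these had an end more than 5 kb from protein-coding genes, and 15 had a member peak (25.4%), beside 13.5% over all such lncRNA genes. The lists are short and their genes well annotated, and no test was made. A replicate 3 peak was present at 3 of the 15: Mir22hg, Mirt1 and Dleu2.

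Of the 12 distant genes in the immune and haematopoietic list, 5 had a peak. Mirt1, a transcript raised in the heart after infarction, had the strongest, 81 bp from its 5' end (chromosome 19, 53464245 to 53465509; 3100 and 208.42), and a second of 754.63 at its 3' end. Morrbid, which restrains the pro-apoptotic gene Bcl2l11 in myeloid cells, had a peak 15 bp from its 5' end (chromosome 2, 128428819 to 128429913; 363.01). Carlr, a lncRNA linked to NF-kB signalling, had a 3' peak of 206.32. AU020206 had a 5' peak of 166.67. Dleu2, the fifth, is described with the microRNA precursors. Apart from those of Mirt1 and Dleu2 at their 5' ends, none of these peaks had a replicate 3 peak.

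Of the 20 distant genes in the list of small RNA precursors, 5 had a peak, each at the 5' end. Snhg15, Snhg17 and Snhg20, which carry snoRNAs in their introns, had peaks centred 14, 22 and 17 bp from the 5' end, with scores of 144.37, 308.59 and 700.93 and no replicate 3 peak. Mir22hg, the precursor of miR-22, stood at 3100 in replicate 2 and at 71.19 in replicate 3, near the floor of that list (chromosome 11, 75459676 to 75461900). Its peak was centred 751 bp before the start. Dleu2, the precursor of miR-15a and miR-16-1 in a region often deleted in human chronic lymphocytic leukaemia, had 2598.44 and 87.54 at its 5' end (chromosome 14, 61680838 to 61683082).

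A microRNA gene lay within the span of 13 of the 1093 lncRNA genes, 16 microRNA genes in all. This search was added after the peaks were known. It used position alone and did not ask for the same strand, and the share over all lncRNA genes was not computed. Besides Mir22hg and Dleu2, they included F630028O10Rik, which holds miR-223, a microRNA of granulocytes that PU.1 is known to activate in myeloid cells. Its peak lay 158 bp before the 5' end (chromosome X, 96239233 to 96240303), 3.05 kb from the microRNA, and scored 285.13 with no replicate 3 peak. C430049B03Rik, on the same chromosome, holds miR-351, miR-503 and miR-322 and had a peak of 204.58 (chromosome X, 53057105 to 53058139). The strongest of the others was at 2900076A07Rik, which holds miR-1839, with 1729.68 at 1 bp from its 5' end and no replicate 3 peak (chromosome 7, 81523001 to 81524102). The rest, E130102H24Rik, Gm34114, Gm33742, Snhg20, Gm5441, 2610307P16Rik, Gm31251 and Gm36493, had scores from 80.57 to 807.02. Of these, Gm34114, Gm5441 and Gm31251 lie on the strand opposite to their microRNA, so they are not its precursors. For C430049B03Rik and Gm36493 the strand was not known. Mature sequences from the lncRNA genes named first are given below 5′ to 3′ (RefSeq, GRCm38.p6). The seed, bases 2 to 8, is in capitals, since it sets which messages a microRNA pairs with. The seed of miR-15a and miR-16 is also that of miR-322, so the spans of Dleu2 and C430049B03Rik hold members of 1 seed family. The seeds of miR-22 and miR-223 differ from it and from each other.
mmu-miR-15a-5p: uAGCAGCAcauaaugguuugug
mmu-miR-16-5p: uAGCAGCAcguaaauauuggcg
mmu-miR-322-5p: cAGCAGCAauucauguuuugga
mmu-miR-503-5p: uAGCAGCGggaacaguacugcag
mmu-miR-22-3p: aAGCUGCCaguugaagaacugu
mmu-miR-223-3p: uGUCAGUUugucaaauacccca

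Of the 5 distant genes in the list of nuclear body and housekeeping RNAs, 1 had member peaks. Malat1, the abundant RNA of nuclear speckles, had 1811.78 centred 514 bp before its 5' end (chromosome 19, 5802214 to 5804158) and 466.53 past its 3' end, neither with a replicate 3 peak. Of the 9 distant genes for dosage compensation and imprinting, 1 did: Jpx, an activator of Xist, with 624.1 at 127 bp from its 5' end (chromosome X, 103492880 to 103493982). Of the 7 in the p53 and cell cycle list, 1 did, Lncenc1 (listed under its older symbol Lincenc1), at 1179.18. It is an RNA of embryonic stem cells and stands in the developmental list too. That list was included for comparison and had 4 of 20: Lncenc1, Platr14 (364.46), Platr4 (201.99) and Fendrr (97.93), a lncRNA of the embryonic mesoderm. None of the member genes in these 4 lists had a replicate 3 peak at an end.

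Neighbouring protein-coding genes were described by distance and by name. The nearest one lay 5.07 to 1553 kb from the peak centre, with a median of 30.2 kb. Between 5 and 10 kb, 16 of 189 peaks had a replicate 3 peak (8.47%, 4.92 to 13.4), between 20 and 50 kb 42 of 336 (12.5%, 9.16 to 16.5), and beyond 100 kb 15 of 206 (7.28%, 4.13 to 11.7), with overlapping intervals. The median replicate 2 score was 286.65, 341.965 and 266.5 in these ranges. In other distant peaks the median fell from 253.53 between 5 and 10 kb to 152.63 beyond 100 kb. Their share with a replicate 3 peak was 10.0% between 5 and 10 kb, 8.43% between 20 and 50 kb and 5.80% beyond 100 kb. Beyond 100 kb lay 36.9% of other distant peaks and 17.5% of members. The comparisons of members with other distant peaks as a whole were not matched for this distance.

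A hand-written list of 102 regulators and signalling genes of B cells and blood cells was the nearest protein-coding neighbour of 61 peaks (5.18%), against 948 of the 31729 other distant peaks (2.99%). The list was written with results of these data known, so these counts describe it only. Of the 61 peaks, 9 had a replicate 3 peak (14.8%), beside 122 of the 948 other distant peaks next to the same list (12.9%) and 10.5% of all members. Beside the one near Syk, they included a peak at the 5' end of Gm40930, 226.1 kb from Jarid2, a subunit of Polycomb complexes (chromosome 13, 44504162 to 44505138; 3100 and 331.78). Gm32039 had one 15.5 kb from Btg2, an antiproliferative gene (chromosome 1, 134093437 to 134095817; 3100 and 299.49). Gm33440 had one 84.7 kb from Bcl11a, a transcription factor that lymphoid progenitors need (chromosome 11, 24257427 to 24259104; 3100 and 259.61). Gm41046 had one 26.6 kb from Cd180, a Toll-like receptor homologue of B cells (chromosome 13, 102666347 to 102667499; 3100 and 224.31). Gm46545 lay 87.9 kb from Bcl6 (3100 and 167.97), and Gm42266 lay 51.0 kb from Bach2 (1646.21 and 103.56), both genes of germinal centre repressors. Gm12159, 108.7 kb from the B-lineage factor gene Ebf1, had a peak of 2073.14 without a replicate 3 peak (chromosome 11, 45116094 to 45117447).

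Some members lay close together. Grouping peaks whose centres were at most 20 kb apart gave 117 groups of 2 or more, with 250 of the 1177 peaks, of which 14 groups had 3 or more. Lincred1, Gm34948 and Gm39895 lay within 9.27 kb (chromosome 2, 103892901 to 103902165), with Lmo2, a gene of blood stem cells, as the nearest protein-coding gene. Their scores were 1060.28, 746.88 and 73.82, and none had a replicate 3 peak. Gm45805 had peaks at both ends, with 378.25 at the 5' end and 235.93 at the 3' end in replicate 3 and 3100 at each in replicate 2.

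By chromosome, members made up 1.28 to 1.94% of the replicate 2 peaks on each autosome. On chromosome X they made up 0.526%, with 14 peaks, none of which had a replicate 3 peak, beside 10.5% of all members. With so few peaks this count says little, and the share over all chromosome X peaks is not given here. A peak lay at 3.54% of the 396 distant lncRNA ends of chromosome X, against 6.20 to 12.4% on the autosomes. Chromosome Y had 1 member, which was 0.935% of its replicate 2 peaks, and a peak at 1.67% of its 60 distant ends.

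Promoter sequence was available for 842 of the 1093 genes, and in 434 of them a 300-base promoter overlapped the peak (1 window per gene, the one nearest the peak centre). Motifs were searched as plain letters on both strands. They were the ETS core GGAA, the PU.1 8-mer GAGGAAGT, the general ETS 8-mer CCGGAAGT, the composite of an ETS and an interferon regulatory factor site GGAANNGAA, the E-box CAGGTG, the AP-1 site TGACTCA and the TATA box TATAAA. The 2 8-mers and the composite contain the core. GAGGAAGT was present in 48 of the 434 promoters (11.1%, 8.27 to 14.4). It was present in 3.01% (2.56 to 3.52) of 5079 distant lncRNA promoters without a replicate 2 peak, and in 3.20% of all 32851 promoter windows. In the 53 promoters whose peak also had a replicate 3 peak, 10 held it (18.9%, 9.44 to 32.0), and in the 381 others 38 did (9.97%, 7.16 to 13.4). Within the highest score bin, these shares were 10 of 50 (20%, 10.0 to 33.7) and 4 of 22 (18.2%, 5.19 to 40.3). Presence of the core could not separate these sets, since nearly all windows hold it: 97.7% and 96.7% of promoters with and without a peak. The median number of cores per promoter was 4 under a member peak and 5 where the peak also had a replicate 3 peak. It was 3 in distant lncRNA promoters without a peak and 3 over all promoters.

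CCGGAAGT was present in 2.76% (1.44 to 4.78) of promoters under a member peak. It was present in 1.06% (0.800 to 1.385) of distant lncRNA promoters without a peak, and in 3.89% of all promoters. The intervals with and without a peak did not overlap. For the motifs that follow, these intervals overlapped. In the same order of sets, GGAANNGAA was present in 10.1%, 9.81% and 8.24%, and TGACTCA in 7.37%, 6.89% and 5.20%. CAGGTG was present in 23.7% (19.8 to 28.0), 19.7% and 20.2%, and TATAAA in 15.4%, 18.6% and 13.6%. In the 53 promoters with a replicate 3 peak, CAGGTG stood at 34.0% (21.5 to 48.3) and TATAAA at 22.6% (12.3 to 36.2). A match is a description of the letters and not a measured site.

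Distances from the peak centre differed between motifs. Within the 48 promoters that hold it, the nearest match was a median of 47.5 bp from the peak centre, and in 32 (66.7%) it was within 150 bp. For the general ETS 8-mer CCGGAAGT, in 12 promoters, the median was 71 bp and the share within 150 bp also 66.7%. The shares were 47.7% for GGAANNGAA and 43.9% for the core GGAA, with medians of 207 and 197.5 bp. For the AP-1 site, the E-box and the TATA box they were 28.1%, 24.3% and 20.9%, with medians of 312, 340 and 370 bp. The distances rest on windows fixed to gene starts, so matches elsewhere in the peaks were not counted. The 10 promoters with both the 8-mer and a replicate 3 peak were those of F730311O21Rik, Mirt1, LOC115486410, Gm31619, C920009B18Rik, Gm26579, Gm35891, Dleu2, Gm40166 and Gm42056, with replicate 3 scores from 75.92 to 456.82. In the sequence of F730311O21Rik printed above, the peak centre lies 4 bp from the start given in the promoter table, which differs from the end of the gene span.

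**Figure D5:**
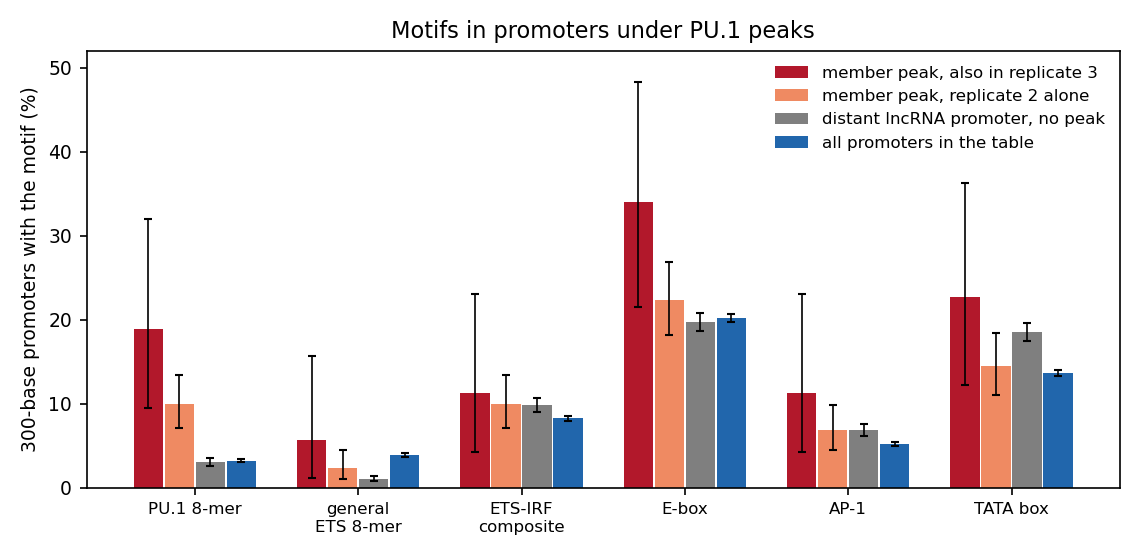
Share of 300-base promoters that hold each motif on either strand, with exact 95% intervals, for lncRNA promoters under a member peak with (dark red) and without (orange) a replicate 3 peak, distant lncRNA promoters without a replicate 2 peak (grey) and all promoters (blue). The PU.1 8-mer is in 18.9%, 9.97%, 3.01% and 3.20% of them.

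Base composition was a further difference. The promoters under a member peak had a median GC content of 49.3%, against 46.7% for distant lncRNA promoters without a peak and 56.3% for protein-coding promoters. A GC content of at least 60% was found in 39 of the 434 (8.99%), in 2.50% of those without a peak and in 39.2% of protein-coding promoters. Chaserr, at 72.3%, Dleu2, at 69.0%, Rab10os, at 67.3%, and Snhg15 and Jpx, both at 64.7%, belong to this group. The 53 promoters with a replicate 3 peak had a median GC content of 47.3%, and 2 of them (3.77%) reached 60%. The 381 without one had a median of 49.3%, and 37 (9.71%) reached 60%. The part of base composition in the peak calls was not tested.

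Values on either side of the limits of the rule were as follows. The 105 peaks centred more than 900 bp from the end had a median score of 265.73 and 5 replicate 3 peaks, and the 94 peaks in the 100 bp beyond the limit, from 1001 bp, had 252.525 and 11. At the limit of 5 kb from protein-coding genes, the nearest member lay at 5067 bp and the nearest peak left out at 4967 bp. The 38 members in the first 1 kb past that limit had a median of 357.39, and the 54 peaks in the last 1 kb before it had 269.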

How the data were processed

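ChIP-seq peak lists of 2 PU.1 libraries and a merged list were used. The submitters' processing notes name Trim Galore, Bowtie, MACS 1.4.1 and the build mm10. Other versions, the control used in peak calling and how the lists were merged: not given in the sources used here. Peak scores, as deposited by the authors, were used within their own list only. The merged list's score is 0 throughout, so only its positions were used. Read depth was not used here.

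Peaks were matched to RefSeq gene spans (GRCm38.p6), strands came from the promoter table (9533 of 12727 lncRNA genes), and exons were not separated. Overlap meant 1 bp or more. Shares carry exact Clopper-Pearson 95% intervals. Nothing says that the libraries come from separate cultures. No test between groups was possible, since peaks exist for 1 group. Coordinates are 1-based. Positions and overlaps were computed in Python 3.11.15 with pandas 2.3.3 and SciPy 1.17.1, and tested on simulated data.

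The members and gene lists were chosen with earlier results of these data known. Named are the 15 members with the highest replicate 3 score, the 5 strongest without a replicate 3 peak, up to 5 genes with the most peaks (ties at 2 peaks are not named) and all list genes with a member peak. The neighbour list, the genes with a microRNA in their span and the groups of nearby peaks were chosen after values were seen. So were the 8-mer promoters and the genes named for base composition. Of the first 15, 1 is not reported here. Alternatives were other distances, biotypes, names, ends, scores, overlaps and lists.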

Additional observations from a re-analysis of the deposited data

How the results depend on the processing

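The share of peaks with a replicate 3 peak ran from 8.99% to 12.0% over the 12 alternatives tried on it and stayed within its interval. Of 76 alternative values for the whole set, 54 stayed within the interval of the reported value or within 1.5 times the reported count, and 22 moved. Among the 37 named genes, the number of member peaks stayed the same in 379 of 481 comparisons. Some of these values could not move. With lncRNA genes alone the set is the same, since no gene carries the biotype ncRNA. That setting is counted among the 12 alternatives, the 76 values and the 481 comparisons. Leaving out replicate 3 cannot change a member count taken from replicate 2, which is also among the 76. Within 500 bp of an end there were 683 peaks, at 8.04% of genes, with 65.0% at 5' ends. Within 2 kb there were 2137, at 22.0% of genes, with 55.1% at 5' ends. Without predicted models 211 peaks were left, 80.1% of them in the merged list and 63.8% at 5' ends. With 5' ends alone there were 561, at 10.4% of genes. With scores of at least 100, the share in the merged list was 87.0%, the median score 382.925 and the share of genes 11.7%. In the merged list 10.3% of genes had an interval. Measured from the nearer peak edge, a setting chosen once values were known, 18.3% of genes had a peak and 55.7% of peaks were at 5' ends. With the other non-coding biotypes, also chosen after seeing the data, the share of genes was 12.2%. The 8-mer share was 18.9% in promoters with a replicate 3 peak. When each library was left out in turn, the number of members ran from 124 (replicate 3 alone) to 1177. In replicate 3 alone, 1.45% of genes had a peak and 51.0% of peaks lay at 5' ends. Shares that compare both libraries have no value with either left out. Some of these shifts follow by construction. A narrower or wider window and fewer gene ends change the counts. A score limit of 100 cannot lower the median score or add genes with a peak. Measuring from the nearer peak edge cannot remove members or genes with a peak. The cause of the other shifts was not tested. Read depth was not used, so how far the shorter replicate 3 list limits the overlap was not tested. No paired analysis was possible because peak lists exist for 1 group only.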

Other observations

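Further lncRNA genes with a role in blood or immune cells, chosen after their values were seen, had peaks at an end. AW112010, an RNA induced in inflammation from which a short protein is made, had a peak of 1394 in replicate 2 and 78.52 in replicate 3, centred 578 bp inside its 3' end (chromosome 19, 11047616 to 11048765). AI662270 had 935.59 (chromosome 11, 83223050 to 83225485), with no replicate 3 peak. Bloodlinc, a lncRNA of red cell precursors beside the band 3 gene Slc4a1, had 117.45. Mexis, which acts on the cholesterol transporter gene Abca1 in macrophages, had 94.52. Among lncRNAs known from other tissues, Rubie, near Bmp4, had 1764.94 in replicate 2 and 119.1 in replicate 3, centred 5 bp from its 3' end (chromosome 14, 46567699 to 46568953).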
